A study of Mus musculus with 6 samples.

Results

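HSP90 is an abundant molecular chaperone that works as a dimer and, driven by its ATPase cycle, holds kinases, steroid receptors and other client proteins in forms that can be activated. Clients are passed to HSP90 from HSP70 by an adaptor, and co-chaperones set the pace of the cycle, bring in particular clients or support their release. HSP90α, HSP90β and several co-chaperones are also known targets of heat shock factor 1 (HSF1), which binds heat shock elements, arrays of the letters GAA in alternating orientation. The genes described here are 9 genes of this system in mouse follicular B cells. They are Hsp90aa1 and Hsp90ab1 (cytosolic HSP90α and HSP90β), Trap1 (the mitochondrial HSP90), and the co-chaperones Ahsa1, Stip1, Chordc1, Cdc37, Fkbp4 and Ptges3, out of 20433 gene names. They were selected from the table by gene name, in a list that was drawn up with the levels in the compared genotypes already known, so the genotype difference of these genes is given as a description and was not tested.

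RNA of flow-sorted follicular B cells was sequenced in 3 samples of CD23Cre+Myh9wt/fl and in 3 of CD23Cre+Myh9fl/fl genotype, all of the C57BL/6 strain. The sort gate is not given in the sources used here. All 6 samples carried a Cre transgene driven by the promoter of Fcer2a, the CD23 gene, which acts from the CD23-expressing transitional stage onward. Exon 3 of Myh9, which encodes the heavy chain of the motor protein myosin IIa, is floxed on 1 allele in wt/fl and on both in fl/fl B cells. The comparison group is therefore haploinsufficient and not wild-type. The study's methods give ranges of ages by kind of experiment, and name mice of both sexes for the ex vivo analysis of cell populations. The sources used here do not say which mice, or how many, gave each sequenced sample. Levels are fragments per kilobase of transcript, scaled to the mapped fragments of the library (FPKM), deposited as 1 value per genotype that pools its 3 samples, so no value below has an error or a spread between samples, and read depth per sample is unknown.

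Heat shock elements were looked for in the promoters of the 9 genes, because several of them are classical HSF1 targets. RefSeq promoter windows (build GRCm38.p6, from 250 bases before to 50 bases after the start site) were at hand for 7 of the 9. Hsp90aa1 and Hsp90ab1 had none in the table used. The search was for GAA and TTC units in alternation, with 2 bases between neighbouring units, so that a pair of units reads GAANNTTC or TTCNNGAA. Either form is its own reverse complement, so that both strands are covered. Chordc1 held 5 perfect units in a row, from 4 bases before to 18 bases after the start site, where 1 of 32851 windows, or 0.00304%, held so many. That window is the one of Chordc1 itself. The stretch around this array, with its 5 units in capitals, lies at chr9:18292237-18292296 on the plus strand.
Chordc1: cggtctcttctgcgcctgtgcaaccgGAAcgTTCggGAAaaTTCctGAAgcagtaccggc

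In 4 other windows the best match had 3 units with 1 mismatched base among their 9 letters. These stretches are printed below, and the levels of their genes lay between 60.7% and 95% of wt/fl in fl/fl cells. A link between match and level was not tested. The bases of the 3 units are in capitals. They lie at chr6:128438777-128438836 on the minus strand (Fkbp4), chr12:87266698-87266757 on the plus strand (Ahsa1), chr10:128058852-128058911 on the plus strand (Ptges3) and chr9:21150074-21150133 on the minus strand (Cdc37).
Fkbp4: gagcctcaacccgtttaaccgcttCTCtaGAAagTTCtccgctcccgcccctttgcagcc
Ahsa1: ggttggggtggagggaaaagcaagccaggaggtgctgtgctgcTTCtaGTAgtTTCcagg
Ptges3: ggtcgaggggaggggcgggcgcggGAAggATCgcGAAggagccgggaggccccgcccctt
Cdc37: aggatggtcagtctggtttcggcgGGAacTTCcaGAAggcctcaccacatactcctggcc

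With Chordc1 these make 5 of 7 member windows with 3 units and at most 1 mismatch, against 7.22% of all windows. A perfect array of 3 or more units was found in Chordc1 alone among the 7, against 0.603% of all windows. A pair of perfect units was found in Chordc1, Fkbp4 and Cdc37, 3 of 7, against 15.1% of all windows. The windows of Stip1 and Trap1 held none of these matches. Stip1 was the 1 member window with a TATA box (TATAAA), a motif of 13.6% of all windows, and it also had a CCAAT box, as did Fkbp4 and Cdc37 (37.4% of all windows). A GC box (GGGCGG) stood in 6 of the 7, all but Ahsa1, against 35.7% of all windows. GC content ranged from 56% in Ahsa1 to 73.7% in Ptges3, above the median of 52.7% over all windows. The base pair CG occurred from 13 times in Ahsa1 to 46 times in Ptges3, against a median of 7. All windows were counted whether or not their gene was expressed here, and windows of like GC content were not compared. These are matches of letters in a short window and were not tested as binding sites.

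**Figure D1:**
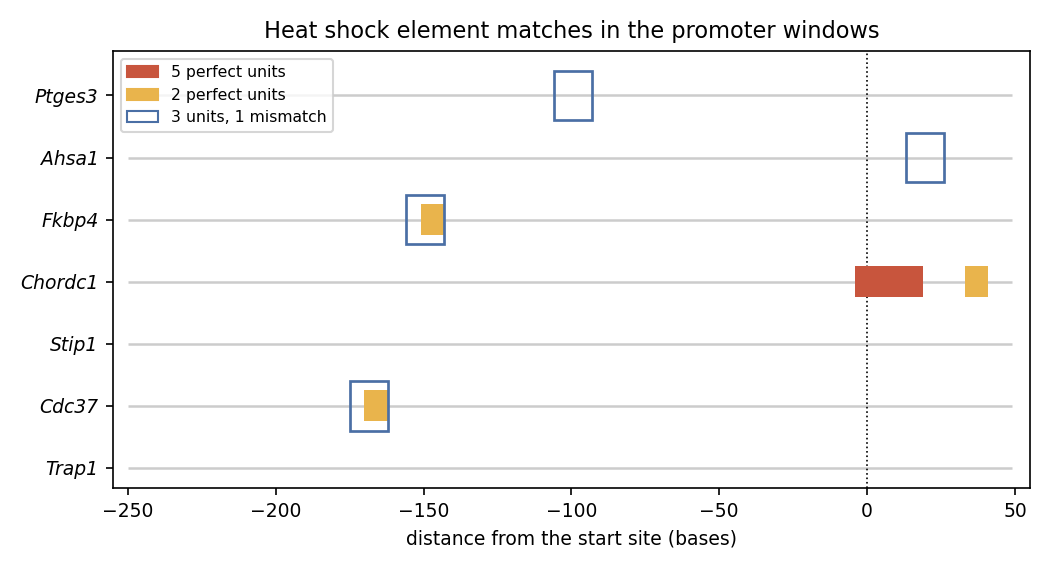
Heat shock element matches in the promoter windows of 7 genes, with the distance from the start site in bases on the x axis and 1 line per gene. The red bar is the array of 5 perfect units of Chordc1, yellow bars are pairs of perfect units, and open boxes are 3 units with 1 mismatch. Chordc1 is the window with an array at the start site, and Stip1 and Trap1 have no match.

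To describe the HSP90 system in cells with Myh9 floxed on both alleles, the pooled level of each gene in fl/fl was compared with that in wt/fl cells. The 2 cytosolic HSP90 genes and 5 of the 6 co-chaperones were lower in fl/fl than in wt/fl follicular B cells, at 49.4% to 69.2% of the wt/fl level, whereas Cdc37 and the mitochondrial Trap1 were at 95% and 105%. Summed over the 9 genes, the level was 1800 FPKM in wt/fl against 1169 FPKM in fl/fl, or 64.9%. These 9 genes accounted for 0.303% of all FPKM in wt/fl, against 0.196% in fl/fl.

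Each of the 9 genes has a single entry in the table, so the values that follow are those of the whole gene. Hsp90ab1 encodes HSP90β, the constitutive form, and was the most abundant of the 9, on chromosome 17 from 45704726 to 45710210 (mm9). Its level was 936 FPKM in wt/fl against 647 FPKM in fl/fl, a log2 ratio of −0.53, which put it at rank 95 of the 9866 compared genes in wt/fl and rank 114 in fl/fl. Hsp90aa1, on chromosome 12 from 111929245 to 111934605 (mm9), encodes HSP90α, the more stress-inducible form. It was at 387 FPKM in wt/fl against 208 FPKM in fl/fl, a log2 ratio of −0.90. The log2 ratio was thus further from 0 for the α form, although the difference in FPKM was larger for the β form. The level of Hsp90ab1 was 2.42 times that of Hsp90aa1 in wt/fl and 3.12 times in fl/fl. Together they stood at 1322 FPKM in wt/fl against 855 FPKM in fl/fl, 64.7% of the wt/fl level. Trap1, on chromosome 16 from 4037144 to 4077810 (mm9), encodes the HSP90 of the mitochondrial matrix. It had 30.7 FPKM in wt/fl against 32.2 FPKM in fl/fl, a log2 ratio of 0.07, and was the only 1 of the 9 that was not lower in fl/fl.

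Ahsa1 encodes AHA1, which stimulates the ATPase of HSP90, on chromosome 12 from 88607677 to 88614902 (mm9). It was at 95.2 FPKM in wt/fl against 57.8 FPKM in fl/fl, a log2 ratio of −0.72. Stip1 encodes HOP, the adaptor that links HSP70 to HSP90 (chromosome 19 from 7095185 to 7114516, mm9). It was at 54.3 FPKM in wt/fl against 29.0 FPKM in fl/fl, a log2 ratio of −0.90, the same to 2 decimals as that of Hsp90aa1. Ahsa1 and Stip1 were thus at 60.7% and 53.4% of their wt/fl levels, beside 53.7% for the α form.

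Chordc1 encodes a CHORD and CS domain co-chaperone, also called morgana, on chromosome 9 from 18096710 to 18118444 (mm9). This gene, whose promoter held the array of 5 perfect units shown above, had the lowest ratio of the 9, with 81.8 FPKM in wt/fl against 40.4 FPKM in fl/fl. Its level in fl/fl was 49.4% of that in wt/fl, a log2 ratio of −1.02, and its rank among the compared genes was 784 in wt/fl and 1866 in fl/fl. Fkbp4 encodes FKBP52, an immunophilin that binds HSP90 through its TPR domain and acts on steroid receptors, on chromosome 6 from 128380124 to 128388649 (mm9). It was at 81.6 FPKM in wt/fl, close to Chordc1, but at 53.0 FPKM in fl/fl, a log2 ratio of −0.62. Ptges3 encodes p23, which stabilizes the closed, ATP-bound form of HSP90, on chromosome 10 from 127496037 to 127514310 (mm9). Its value was the highest of the co-chaperones among the 9 genes, with 99.1 FPKM in wt/fl against 68.1 FPKM in fl/fl. The log2 ratio was −0.54, nearly that of Hsp90ab1. Cdc37 encodes the adaptor that brings protein kinases to HSP90, on chromosome 9 from 20942984 to 20954350 (mm9). It had 34.9 FPKM in wt/fl against 33.1 FPKM in fl/fl, a log2 ratio of −0.07. Cdc37, whose match had 1 mismatched base, was at 95% of its wt/fl level, and Stip1, without a match, was at 53.4%. Whether a match in the window goes with the level was not tested, and Hsp90aa1 and Hsp90ab1 had no window.

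**Figure D2:**
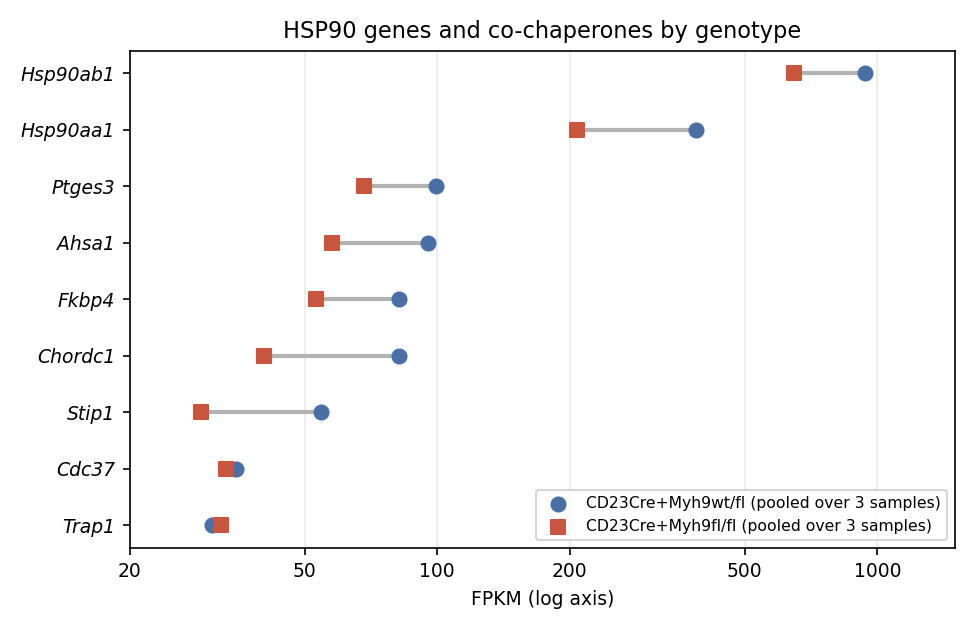
Pooled FPKM of the 9 genes (log axis), with circles for CD23Cre+Myh9wt/fl and squares for CD23Cre+Myh9fl/fl, each pooled over 3 samples and so without error bars. The square lies to the left of the circle for 8 of 9 genes, with the longest gap for Chordc1 (81.8 and 40.4 FPKM), while both symbols nearly coincide for Cdc37 and Trap1.

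In wt/fl the order of the levels was Hsp90ab1, Hsp90aa1, Ptges3, Ahsa1, Chordc1, Fkbp4, Stip1, Cdc37 and Trap1. In fl/fl Fkbp4 stood above Chordc1, and the values of Cdc37 and Trap1 were above that of Stip1. Neighbours such as Chordc1 and Fkbp4 in wt/fl (81.8 and 81.6 FPKM), or Cdc37, Trap1 and, in fl/fl, Stip1, cannot be ordered, as their spread is not known. The 6 co-chaperones together made up 33.8% of the level of cytosolic HSP90 in wt/fl and 32.9% in fl/fl, but the single shares differed more. Chordc1 was at 6.18% of the summed level of Hsp90aa1 and Hsp90ab1 in wt/fl and at 4.72% in fl/fl, and Stip1 at 4.11% and 3.40%. Fkbp4 had nearly the same share in both, 6.17% and 6.20%. Cdc37 was at 2.64% in wt/fl and 3.87% in fl/fl. Its own level was nearly flat (34.9 and 33.1 FPKM), whereas the HSP90 sum it was divided by was lower in fl/fl. Trap1, also nearly flat, likewise stood at 2.32% in wt/fl and 3.77% in fl/fl. All of these are shares of mRNA levels.

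To set these values beside the whole table, a log2 ratio with 1 added to each FPKM was taken for the 9866 genes whose mean reached 1 FPKM, and genes past 1.5-fold were counted. Of the 9 genes, all of which passed this filter in either genotype, 5 were lower past 1.5-fold (Chordc1, Hsp90aa1, Stip1, Ahsa1 and Fkbp4) and 0 were higher. Over all compared genes 1.53% were lower and 0.791% were higher past 1.5-fold. Fkbp4 was just past this fold, at 1.54-fold lower, and Ptges3 (1.46-fold) and Hsp90ab1 (1.45-fold) just missed it. On the same scale, 7 of the 9 were at or below 80% of wt/fl, against 5.48% of all compared genes. Since ratios scatter less at high levels, the 3764 genes whose mean reached 20 FPKM were counted as well, of which 0.797% were lower past 1.5-fold. These are 30 genes, and 5 of them are among the 9. The median log2 ratio was −0.61 for the 9 genes and 0.0026 for all compared genes, of which 49.5% were lower in fl/fl. Of the genes with at least 20 FPKM, 9 had a lower ratio than Chordc1, 14 than Hsp90aa1, 16 than Stip1 and 39 than Hsp90ab1, whereas 26.1% had a lower ratio than Cdc37 and 65.8% than Trap1. The rule for the 9 genes used this contrast, so these counts describe them and are no test.

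**Figure D3:**
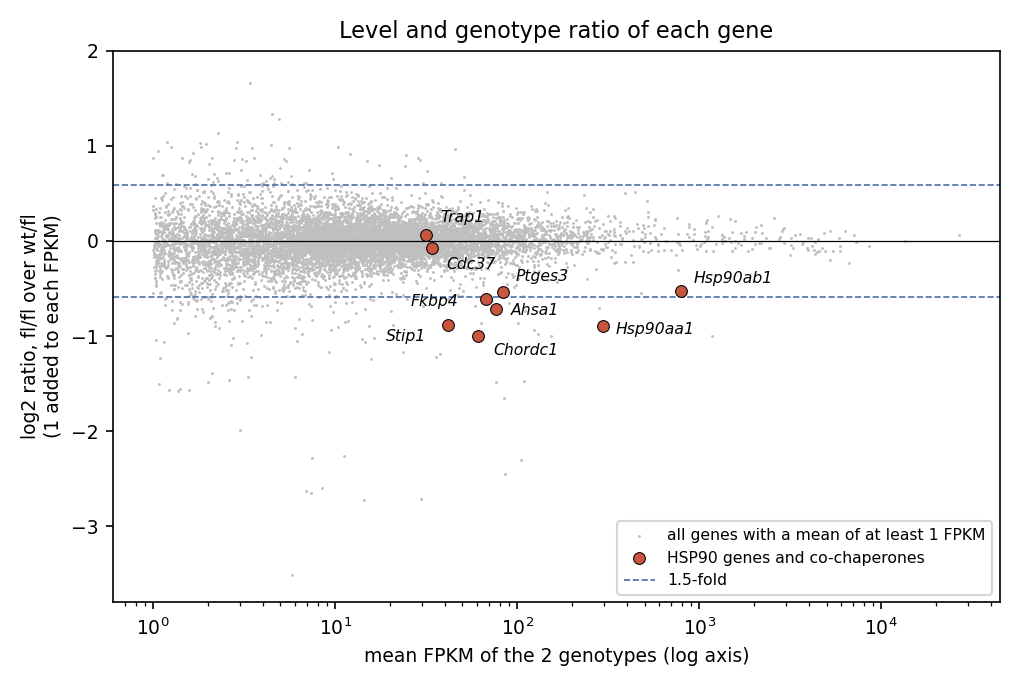
Log2 ratio of fl/fl over wt/fl, with 1 added to each FPKM, against the mean FPKM of both genotypes (log axis) for 9866 genes in grey and the 9 genes in red, with dashed lines at 1.5-fold. Chordc1, Hsp90aa1, Stip1, Ahsa1 and Fkbp4 lie below the lower dashed line, Ptges3 and Hsp90ab1 just above it, and Cdc37 and Trap1 near 0.

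Near-identical copies limit how well some of these genes can be measured. In the transcripts of GENCODE M21, 58.5% of the 50-base stretches of Hsp90aa1 also occur in transcripts of other genes, with the largest part, 51.5%, in the pseudogene Gm12346. For Ptges3 the share was 22.2%, nearly all in the pseudogene Ptges3-ps, and for Ahsa1 it was 14.6%. It was 5.59% for Stip1, 4.49% for Hsp90ab1 and at most 0.331% for Chordc1, Cdc37, Fkbp4 and Trap1. None of the copies that share stretches with Hsp90aa1, Hsp90ab1, Ptges3 or Ahsa1 has an entry in the table under that name, so how fragments from such stretches were counted cannot be seen. Hsp90aa1 and Hsp90ab1 shared 0 of 3232 stretches with each other, so the 2 cytosolic genes were not counted from common stretches of this length. The spans of Trap1 and Dnase1 overlap, and Chordc1 overlaps the pseudogene Gm19178 on the opposite strand. Whether the counting used strand is not given in the sources used here.

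Beyond the 9 genes, 32 other co-chaperones of HSP90 were taken from textbook knowledge, of which 29 reached a mean of 1 FPKM. Both lists were drawn up with earlier results of these data known, so the difference between them was not tested. Of these 29 genes, 3 were lower past 1.5-fold (St13, Ahsa2 and Spag1) and 0 were higher, against 1.53% and 0.791% of all compared genes, with a median log2 ratio of −0.06. St13 encodes HIP, which binds HSP70 ahead of the transfer to HSP90, and was at 110 FPKM in wt/fl against 69.9 FPKM in fl/fl, a log2 ratio of −0.66. Ahsa2, the relative of Ahsa1, was at 50.8 FPKM in wt/fl against 32.8 FPKM in fl/fl, a log2 ratio of −0.63, close to the −0.72 of Ahsa1. Spag1, which encodes a TPR protein, was near the filter, with 2.00 FPKM in wt/fl against 0.893 FPKM in fl/fl. The other co-chaperones of this list differed little. Dnajc7, a TPR co-chaperone that contacts HSP70 and HSP90, had 95.2 FPKM in wt/fl against 89.1 FPKM in fl/fl, and Tomm34, a TPR protein, had 65.2 and 62.6 FPKM. Of the relatives of the 9 genes, Cdc37l1 was at 30.9 FPKM in wt/fl against 30.5 FPKM in fl/fl, as flat as Cdc37, and Fkbp5, the immunophilin most like Fkbp4, was at 6.59 and 6.75 FPKM. These 2 were named after their values had been seen.

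Hsp90b1, the HSP90 of the endoplasmic reticulum, was at 423 FPKM in wt/fl against 363 FPKM in fl/fl, a log2 ratio of −0.22. Its value was above that of Hsp90aa1 in both genotypes. In wt/fl (423 and 387 FPKM) these genes cannot be ordered, as their spread is not known. Cnpy3, its co-chaperone for Toll-like receptors, was at 43.2 FPKM in wt/fl against 38.5 FPKM in fl/fl. By compartment, therefore, the log2 ratios were −0.53 and −0.90 for the cytosolic forms, −0.22 for the endoplasmic form and 0.07 for the mitochondrial form. Hsf1, which encodes the regulator of heat shock genes, was at 44.4 FPKM in wt/fl against 39.9 FPKM in fl/fl (log2 ratio −0.15), and Hsf2 at 3.49 and 3.71 FPKM.

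With 1 added to each FPKM, 0 of 19 known or likely clients that B cells use were past 1.5-fold in either direction. This count is near the shares of 1.53% lower and 0.791% higher over all compared genes. By its plain log2 ratio of −0.81, Ahr was lower past 1.5-fold. The clients had a median log2 ratio of −0.01 and a range from −0.49 to 0.30 on the scale with 1 added. The B cell receptor kinases Lyn (175 FPKM in wt/fl against 159 FPKM in fl/fl) and Syk (169 and 127 FPKM) and the cytokine receptor kinase Jak1 (140 and 148 FPKM) were the most abundant. On the same scale, 4 of the 19 clients were at or below 80% of wt/fl, against 5.48% of all compared genes. These were Syk, the glucocorticoid receptor gene Nr3c1 (50.6 FPKM in wt/fl against 37.8 FPKM in fl/fl), Pim1 (3.22 and 2.20 FPKM) and Ahr (2.08 and 1.18 FPKM), and all but Syk were named after their values had been seen. Levels of client mRNA say nothing of client protein, which was not measured in this table.

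**Figure D4:**
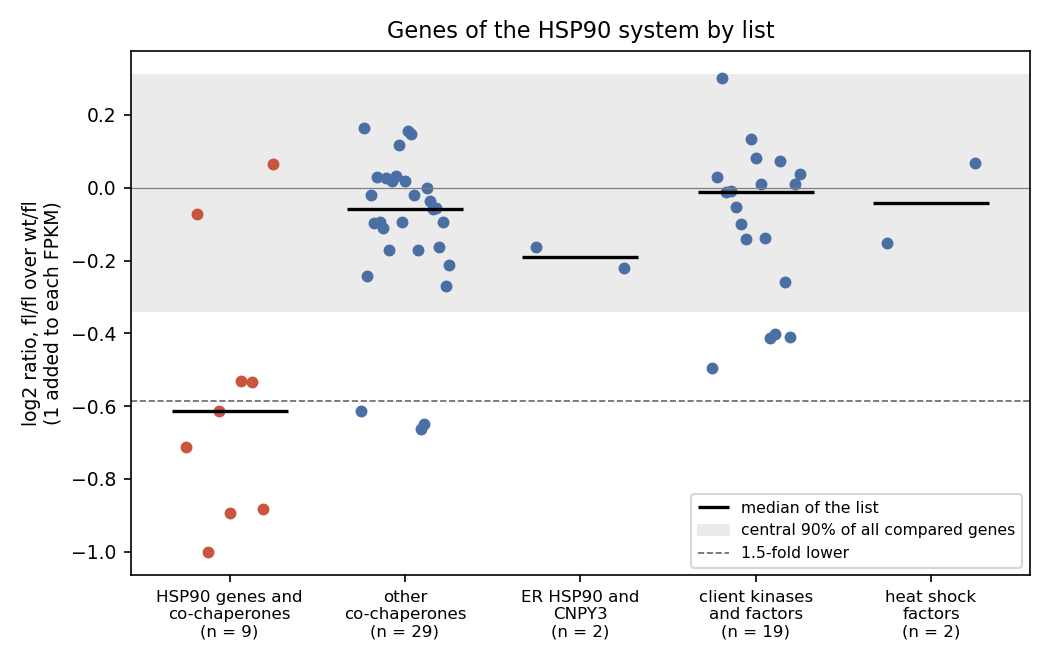
Log2 ratio of fl/fl over wt/fl, with 1 added to each FPKM, for every compared gene of 5 lists, with black lines at the median of each list and a grey band for the central 90% of all compared genes. Of the 9 genes in red, 7 lie below the grey band, as do 3 of 29 other co-chaperones and 4 of 19 clients, and below the dashed line of 1.5-fold lower lie 5 of the 9, 3 of the 29 and 0 of the 19.

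Myh9 itself was at 50.6 FPKM in wt/fl against 21.1 FPKM in fl/fl, 41.7% of the haploinsufficient level, in values that cover the whole coding sequence and not exon 3 alone. B cell markers were high in both genotypes, led by Cd74 (7307 and 7237 FPKM) and H2-Aa (6083 and 6545 FPKM), and 14 of 14 lay within 1.5-fold. The 13 neutrophil markers in the table summed to 452 FPKM in wt/fl against 112 FPKM in fl/fl, with S100a9 (175 and 34.5 FPKM) and S100a8 (145 and 25.8 FPKM) the most abundant. All 13 were lower in fl/fl, but only 8 of them reached a mean of 1 FPKM. Elane and Mpo were listed at 0 in fl/fl and were already near 0 in wt/fl (0.119 and 0.0916 FPKM). Of the erythroid markers, 6 of 6 were lower, with a sum of 67.5 and 14.7 FPKM, led by Beta-s (52.0 and 7.08 FPKM) and Car2 (11.7 and 6.91 FPKM). Only these 2 erythroid markers reached a mean of 1 FPKM. T cell markers summed to 26.6 and 24.7 FPKM over 10 genes, led by Lck (14.5 FPKM in both) and Cd3d (3.02 and 2.31 FPKM). Macrophage markers summed to 90.02 and 61.1 FPKM over 10 genes, led by Lyz2 (72.6 and 44.9 FPKM, also on the neutrophil list) and Cd68 (7.41 and 6.10 FPKM). Neutrophil and erythroid markers were thus lower in fl/fl, as the cytosolic HSP90 genes were, and their part in the difference was not tested. In sorted bulk cells, fewer cells of a kind and less RNA per cell cannot be told apart, and with pooled values no value could be recomputed with a sample left out.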

How the data were processed

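Total RNA of sorted follicular B cells was amplified (Ovation RNA-Seq system V2) and sequenced from TruSeq Nano libraries. The submitters' processing notes name Bowtie, TopHat and Cufflinks, without versions, and the builds mm10 and GRCm38. Of the genes with a promoter window, all but Trap1 have deposited positions that are not those of GRCm38. In addition, 118 entries lie on sequences named in the style of mm9 against 0 named in that of GRCm38. Positions are therefore given as mm9 and were not converted. The authors deposited 1 table that compares the genotypes, with FPKM per coding sequence, pooled over 3 samples per genotype. Its values labelled HET and KO are those of wt/fl and fl/fl. The authors' own fold changes, test statistics and p- and q-values were not used. Of 25017 entries, 44 whose symbol had turned into a date were left out, which left 24973.

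FPKM was summed per gene name. Log2 ratios of single genes are plain, and counts and medians add 1 to each FPKM and ask for a mean of at least 1 FPKM. With 1 value per genotype no test, interval or leave-one-out value can be given. Low FPKM times transcript length gave whole multiples of its most frequent step (within 0.1) for only 25.8% of values in wt/fl and 32.3% in fl/fl, so whole reads were not recovered. The 9 genes, the lists, the fold of 1.5 and the named genes (every listed gene past 1.5-fold and the 3 most abundant of a list, or 2 of a marker list) were chosen with earlier results of these data known, and the count at 20 FPKM after its values were seen. Alternatives were other pseudocounts, filters, scalings, entries and folds. Promoters came from RefSeq (GRCm38.p6) and transcripts from GENCODE M21. The computations were tested on data with known answers, with Python 3.11.15, pandas 2.3.3 and numpy 2.4.6.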

Additional observations from a re-analysis of the deposited data

How the results depend on the processing

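No paired analysis was possible because the deposited table holds 1 pooled value per genotype, and for the same reason no replicate was left out. Of 10 alternatives, 5 changed the pseudocount or the scaling and could alter the log2 ratio of a single gene. Under these, 0 of 45 ratios of the 9 genes moved by over 0.1 on the log2 scale. Chordc1 ranged from −1.02 to −0.93, Hsp90aa1 from −0.94 to −0.88 and Hsp90ab1 from −0.55 to −0.53. Fkbp4 ranged from −0.63 to −0.58 and was no longer past 1.5-fold with a pseudocount of 5, which left 4 of the 9 genes lower. At 2-fold, with 1 added to each FPKM, 0 of the 9 genes and 0 other co-chaperones were lower. With a pseudocount of 5, 1 other co-chaperone was lower. The number of lower clients was 1 with a pseudocount of 0.1, 1 with the most abundant entry of each gene and 4 at a limit of 80% of wt/fl. The share of all compared genes that were lower was 2.59% with a pseudocount of 0.1, 0.527% with 5, 0.867% at a mean of at least 5 FPKM, 0.974% without a filter, 5.48% at the limit of 80% and 0.405% at 2-fold. Of 7 promoter windows, 3 held 2 perfect units and 5 held 3 units with at most 1 mismatch. What depth limits cannot be given, since depth is unknown.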

Other observations

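Of the compared genes, 7509 had a RefSeq promoter window, and 46 of these held a perfect array of 3 or more units of the heat shock element. Their median log2 ratio, with 1 added to each FPKM, was −0.039, against 0.0029 for all 7509, and 2 of the 46 (4.35%) were lower past 1.5-fold, against 103 of the 7509 (1.37%). The 2 genes were Chordc1 and Hsph1 (129 FPKM in wt/fl against 40.3 FPKM in fl/fl). Without Chordc1 the median of the other 45 was −0.039, and 1 of 45 (2.22%) was lower. Arrays of 4 or more units were found in 5 compared genes. These were Chordc1, Hspd1 (129 and 86.1 FPKM), Hspe1 (571 and 390 FPKM), Kctd18 (21.8 and 22.4 FPKM) and Arpc2 (477 and 568 FPKM). Of these 5, Chordc1 was lower past 1.5-fold and 0 were higher. Hspd1 and Hspe1 just missed this fold, with log2 ratios of −0.577 and −0.549 on the scale with 1 added. Kctd18 and Arpc2 were on the other side of 0, at 0.037 and 0.253. The median of the 5 was −0.549. Overlap between the windows of different genes was not checked, so an array that lies in 2 windows would count for both genes. This comparison was chosen after the arrays had been counted, and no test was run on it.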
